A study of Homo sapiens with 6 samples.

Results

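The genes described are 38 interferon-stimulated effector genes, a fixed list of symbols that leaves out the sensors, the signalling chain and the OAS, IFIT and IFITM families, out of 20979 symbols in the lists of A172 cells, an established human glioblastoma line. All 38 were listed in all 6 libraries. Polyadenylated RNA was taken 1 day after lipid transfection with a miR-324-5p duplex (5p duplex, 2 libraries), a miR-324-3p.1 duplex (3p.1 duplex, 2 libraries) or a control miRNA (2 libraries), with no other treatment named for any group. Each library was deposited as TPM, which scales a gene's reads by transcript length and by library total. A172 is 1 cell line, and the labels do not say whether replicates were grown apart, so the p-values speak of these libraries and the spread among them may be technical.

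Interferon-stimulated genes are switched on when type I or type III interferon reaches its receptor and the transcription factor complex ISGF3, of which IRF9 is the DNA-binding part, binds interferon-stimulated response elements in their promoters. Their products block viral entry, RNA synthesis, translation or assembly, or tag proteins with ISG15 or ADP-ribose. Introduced double-stranded RNA is a known trigger of interferon in many cell types, and some tumour lines hold a basal level of these transcripts without added interferon.

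The transfected duplexes are named for the arms of the miR-324 hairpin. The strands that RefSeq annotates for these arms on GRCh38.p14 are shown for reference, with the seed (bases 2 to 8) in capitals. The labels give neither the sequence of the 3p.1 strand nor that of the control, so the annotated 3p strand need not be the one introduced.
hsa-miR-324-5p, chr17:7223343-7223364, minus strand: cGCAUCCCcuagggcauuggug
hsa-miR-324-3p, chr17:7223308-7223330, minus strand: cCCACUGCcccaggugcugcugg

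Each library listed between 18660 and 19070 symbols, of which 13216 to 13536 reached 1 TPM, and the number of reads behind them is unknown. Replicates differed by a median of 0.153 (5p duplex), 0.129 (3p.1 duplex) and 0.167 (control) in log2(TPM + 1) over the 13400 genes tested. For the 38 genes the replicates were not alike in the control group: the second control library stood above the first in 38 of 38, by a median of 1.25 log2 units and by 0.23 to 2.61, where 55.9% of tested genes were higher in it and the median was 0.04. By at least 1 log2 unit it stood above the first in 23 of the 38, against 1.19% of tested genes. The second 5p duplex library differed from the first by a median of -0.25 (-0.88 to 0.30) and was lower in 34 of 38, against 48.6% of tested genes, and the second 3p.1 duplex library by -0.06 (-0.43 to 1.00). The counts and medians against control are therefore also given for each control library alone. The labelled line was checked with markers: VIM, CD44, NES and SOX9 were detected throughout, and GFAP stood at 0.05 to 0.25 TPM, while S100B and AQP4, markers of mature astrocytes, were listed in no library. Of the lymphocyte markers, CD3D, CD3E and MS4A1 were listed in no library, and the summed list stood at 6.49 to 6.61 TPM (5p duplex), 6.63 to 7.55 TPM (3p.1 duplex) and 5.59 to 6.82 TPM (control), nearly all of it PTPRC. Of 6 myeloid markers 5 were listed, with sums of 60.0 to 66.1, 37.7 to 47.9 and 58.7 to 62.3 TPM, and of 4 plasmacytoid dendritic markers CLEC4C and LILRA4 were not listed, with sums of 23.6 to 28.7, 25.8 to 25.9 and 27.0 to 27.1 TPM in the same order of groups. Most of the myeloid sum was CD68, and most of the plasmacytoid dendritic sum was TCF4. Endothelial markers summed to 0.50 to 0.88 TPM with the duplexes and 0.80 to 1.14 TPM in control. The 5 neuron markers summed to 274 to 313 TPM (5p duplex), 297 to 302 TPM (3p.1 duplex) and 258 to 284 TPM (control). Nearly all of the neuron sum was TUBB3 (246 to 302 TPM), while RBFOX3, SNAP25 and STMN2 stood under 1 TPM in every library. The 5 epithelial markers summed to 908 to 1028 TPM (5p duplex), 1187 to 1348 TPM (3p.1 duplex) and 1191 to 1211 TPM (control), nearly all of it KRT8 and KRT18. The part of any marker list in the results was not tested. In bulk RNA, fewer cells of a type and less RNA per cell cannot be told apart.

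Together the 38 transcripts made up 1508 and 1377 TPM with the 5p duplex, 1486 and 1367 TPM with the 3p.1 duplex, and 2381 and 4719 TPM in control. Their median level was 26.6 and 22.1 TPM, 21.7 and 20.6 TPM, and 52.4 and 101.0 TPM in the same libraries. The 4 duplex libraries thus lay close together, and both control libraries lay above them, the second far above the first. In 38 of 38 genes all 4 duplex libraries were below both control libraries, an order found in 10.6% of tested genes (22.1% for the 5p duplex libraries alone and 24.1% for the 3p.1 duplex libraries alone). For 4 of the 38 (XAF1, RTP4, IFI44L and EPSTI1) the mean of 1 TPM required for testing was reached only through the controls, so this direction was built into their being tested. The other 34 reached it in the duplex libraries alone.

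The first question was how the transcripts stood with either duplex relative to the control miRNA. With both duplexes averaged, the log2 fold change against control was below 0 in 38 of 38 genes, with a median of -1.59 (-4.26 to -0.42), where the median over all 13400 tested genes was -0.035. The limma fit across all tested genes called 0 of the 38 after Benjamini-Hochberg adjustment, lower or higher, against 0.0299% of tested genes called lower and 0.0149% called higher. At an unadjusted p under 0.05 it had 38 of 38 lower, against 6.97% of tested genes. All these counts include the 4 genes that reached the minimum for testing only through the controls. The median was -1.58 (-4.32 to -0.41) for the 5p duplex and -1.62 (-4.21 to -0.43) for the 3p.1 duplex, each with 38 of 38 below 0. Again 0 of the 38 were called in either, against 0.425% of tested genes called lower and 0.0373% called higher with the 5p duplex, and 0.00746% in each direction with the 3p.1 duplex, and 38 of 38 were lower at an unadjusted p under 0.05 in both, against 7.3% of tested genes with the 5p duplex and 5.62% with the 3p.1 duplex. Both comparisons share the 2 control libraries. Every gene thus stood lower in both comparisons, and none passed the adjusted test in this fit.

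Size and call depended on the control library. Against the first control library alone, the mean of the 4 duplex libraries stood lower by a median of -0.86 log2 units (-3.09 to -0.27), and 17 of the 38 reached 1 log2 unit, against 0.515% of tested genes. Against the second alone, the median was -2.29 (-5.44 to -0.54), and 33 of the 38 reached 1 log2 unit, against 1.09% of tested genes. In the fit without the first control library 31 of the 38 were called lower with both duplexes, against 0.731% of tested genes, 30 with the 5p duplex (0.918%) and 30 with the 3p.1 duplex (0.672%). The 7 not called there with both duplexes were MX1, UBE2L6, TRIM5, TRIM21, PML, SP100 and LGALS3BP. In the fit without the second control library 1 of the 38, ISG15, was called lower in each of these comparisons, against 0.0597% (both duplexes), 0.119% (5p duplex) and 0.0448% (3p.1 duplex) of tested genes, and 34, 33 and 34 had an unadjusted p under 0.05. In these fits the lone control library is assumed to vary like the other groups. For the 38 genes this did not hold, since the control libraries differed by a median of 1.25 log2 units. Between replicates the median was -0.25 for the 5p duplex and -0.06 for the 3p.1 duplex. The error of these fits leaves out the gap between the controls, so their calls overstate how sure the differences are. All duplex libraries thus lay below either control, at different distances. The counts in these comparisons include XAF1, RTP4, IFI44L and EPSTI1, which reached the minimum for testing only through the controls.

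**Figure D1:**
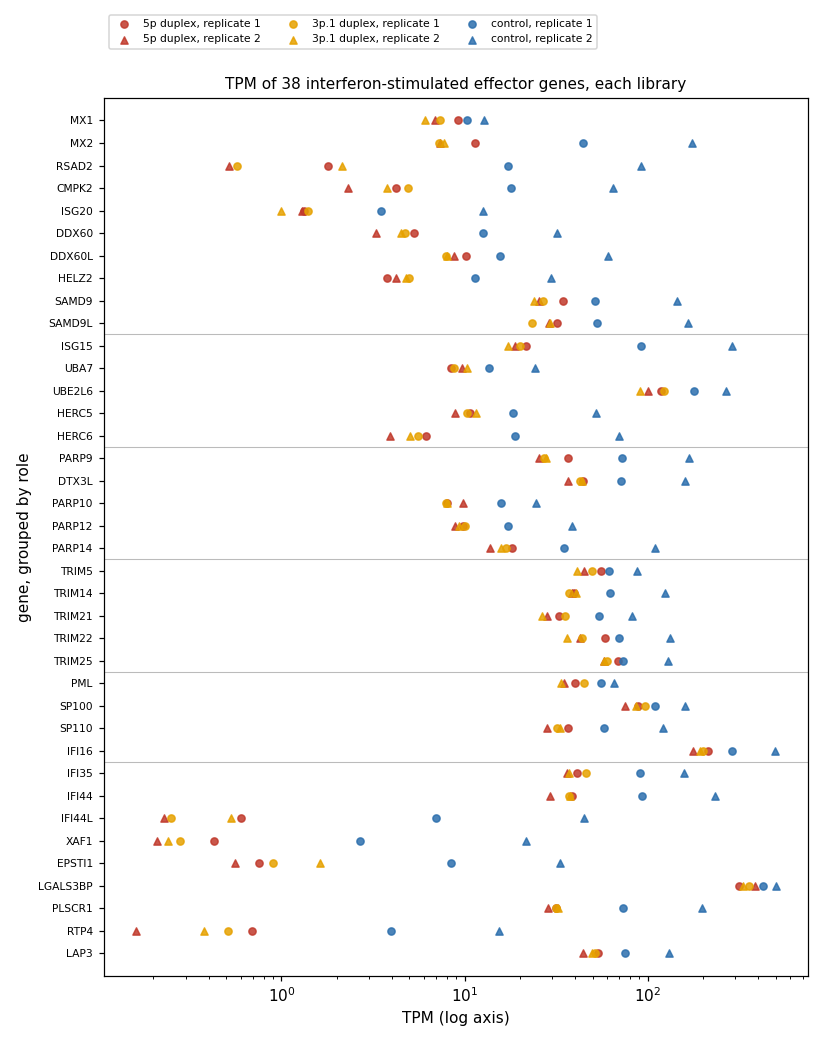
TPM of each of the 38 genes (rows, grouped by role, lines between roles) in each library on a log axis; red is the 5p duplex, yellow the 3p.1 duplex and blue control, circles replicate 1 and triangles replicate 2. In every row both blue symbols lie to the right of all red and yellow ones, and the blue triangle lies to the right of the blue circle.

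**Figure D2:**
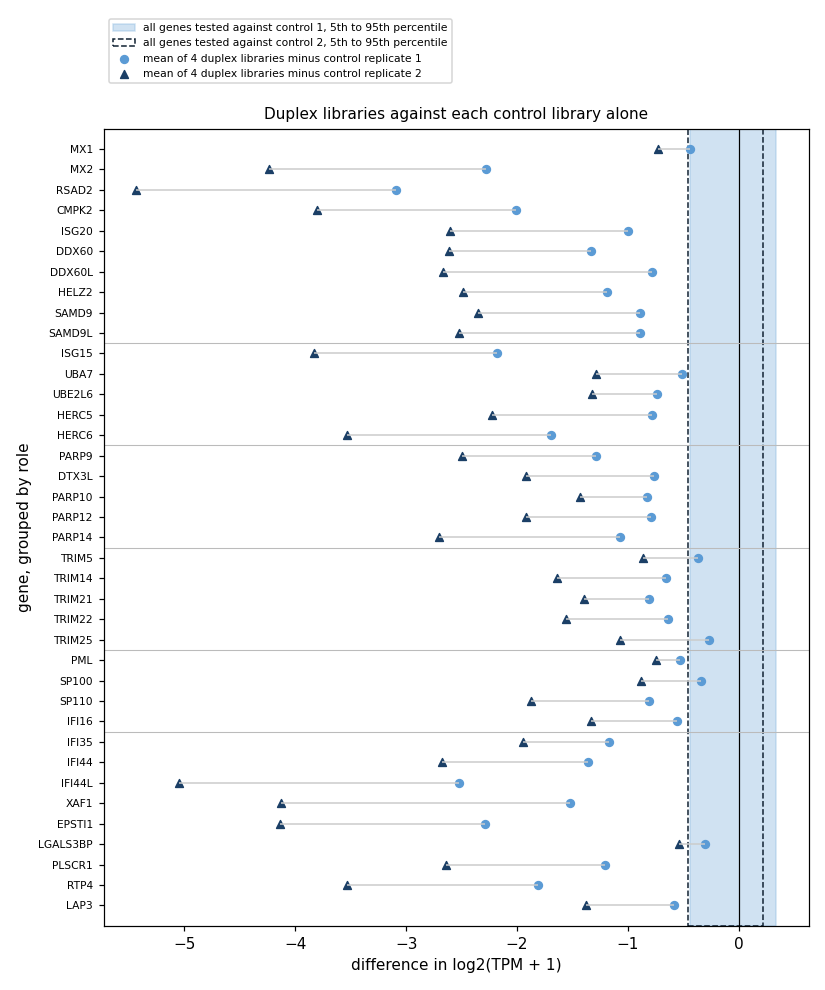
Mean log2(TPM + 1) of the 4 duplex libraries minus that of control replicate 1 (light circles) or control replicate 2 (dark triangles) for each gene, with the range holding 5% to 95% of all tested genes as a shaded (control replicate 1) and a dashed band (control replicate 2). RSAD2 lies farthest to the left, at -3.09 and -5.44, and the circles of TRIM5, SP100, LGALS3BP (-0.30) and TRIM25 (-0.27) lie inside the shaded band.

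Among the nucleotide and RNA effectors, RSAD2 and CMPK2 are neighbours on chromosome 2 that are read in opposite directions: RSAD2 encodes viperin, which makes a chain-terminating nucleotide, and CMPK2 a nucleotide kinase. RSAD2 stood at 1.80 and 0.52 TPM with the 5p duplex, 0.57 and 2.14 TPM with the 3p.1 duplex and 17.2 and 91.9 TPM in control. CMPK2 stood at 4.23 and 2.30 TPM in the 5p duplex libraries and 4.90 and 3.76 TPM in the 3p.1 duplex libraries, against 17.9 and 64.3 TPM in the control libraries. Their log2 fold changes with both duplexes were -4.26 (SE 0.663, adjusted p = 0.126) and -2.90 (SE 0.478, adjusted p = 0.142), and RSAD2 had the lowest value of all 38 at a pseudocount of 1 TPM. At a pseudocount of 0.1 TPM it stood at -5.11 and IFI44L lower, at -5.23. The second control library held 5.34 times the RSAD2 level of the first.

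MX1 and MX2 encode dynamin-like GTPases that trap viral nucleocapsids, the first mainly active against influenza-type viruses and the second against HIV-type viruses. They lie 10913 bases apart on chromosome 21, MX2 at chr21:41361943-41409390 and MX1 at chr21:41420304-41459214, both on the plus strand. MX2 had 11.4 and 7.32 TPM (5p duplex), 7.21 and 7.76 TPM (3p.1 duplex) and 44.0 and 174 TPM (control). MX1 had 9.19 and 6.87 TPM (5p duplex), 7.35 and 6.10 TPM (3p.1 duplex) and 10.3 and 12.8 TPM (control). The neighbours differed in size: MX2 stood at -3.26 (SE 0.502, adjusted p = 0.126) and MX1 at -0.59 (SE 0.158, adjusted p = 0.359). In both controls MX2 was the more abundant of the pair, while in the duplex libraries their levels overlapped.

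ISG20, an RNA exonuclease, had 1.32 and 1.30 TPM in the 5p duplex libraries and 1.40 and 1.00 TPM in the 3p.1 duplex libraries, against 3.51 and 12.7 TPM in the control libraries. HELZ2, a helicase that acts as a nuclear receptor coactivator, had 3.78 and 4.23 TPM with the 5p duplex, 4.98 and 4.79 TPM with the 3p.1 duplex and 11.4 and 29.4 TPM in control. Both controls lay above all duplex libraries, and the log2 fold changes were -1.80 and -1.84.

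DDX60 and DDX60L are paralogous helicase genes on chromosome 4, and reads of such pairs can be split between them, so single values are uncertain, as they are for MX1 and MX2, SAMD9 and SAMD9L, HERC5 and HERC6, IFI44 and IFI44L, and TRIM5 and TRIM22. DDX60 had 5.29 and 3.27 TPM (5p duplex), 4.73 and 4.47 TPM (3p.1 duplex) and 12.5 and 31.9 TPM (control). DDX60L had 10.1 and 8.74 TPM (5p duplex), 7.94 and 8.03 TPM (3p.1 duplex) and 15.6 and 60.7 TPM (control). SAMD9 and SAMD9L, neighbouring paralogues on chromosome 7 whose products hold back poxviruses, were more abundant: SAMD9 had 34.6 and 25.3 TPM with the 5p duplex, 26.7 and 24.1 TPM with the 3p.1 duplex and 51.6 and 143 TPM in control. SAMD9L had 31.9 and 28.9 TPM in the 5p duplex libraries and 23.3 and 29.1 TPM in the 3p.1 duplex libraries, against 53.1 and 166 TPM in the control libraries. The log2 fold changes of these 4 genes lay between -1.97 and -1.62. Over the 10 genes of this role the median was -1.82, with 10 of 10 below 0 and 0 of 10 called, and it was -1.10 against the first control library alone and -2.61 against the second.

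ISG15 is a ubiquitin-like protein that is attached to other proteins by the activating enzyme UBA7, the conjugating enzyme UBE2L6 and the ligase HERC5, while HERC6 is the main ligase in mice. ISG15 had 21.6 and 18.9 TPM with the 5p duplex, 20.1 and 17.2 TPM with the 3p.1 duplex and 91.5 and 289 TPM in control. Its log2 fold change was -3.01 (SE 0.412, adjusted p = 0.109) with both duplexes, -2.95 (SE 0.476, adjusted p = 0.0753) with the 5p duplex and -3.07 (SE 0.476, adjusted p = 0.212) with the 3p.1 duplex. The duplex libraries lay within a few TPM of each other and far below either control. Without the second control library the log2 fold change of ISG15 was -2.18 with both duplexes.

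Among the enzymes of this chain, UBE2L6 had the most abundant transcript. It stood at 118 and 100.2 TPM (5p duplex), 122 and 90.3 TPM (3p.1 duplex) and 179 and 269 TPM (control). UBA7 had 8.44 and 9.70 TPM (5p duplex), 8.72 and 10.3 TPM (3p.1 duplex) and 13.6 and 24.1 TPM (control). The transcript of the activating enzyme was thus the scarcer of the pair. HERC5 had 10.8 and 8.91 TPM in the 5p duplex libraries and 10.2 and 11.5 TPM in the 3p.1 duplex libraries, against 18.4 and 52.0 TPM in the control libraries. HERC6 had 6.13 and 3.89 TPM with the 5p duplex, 5.58 and 5.06 TPM with the 3p.1 duplex and 18.7 and 69.8 TPM in control. The ligase genes lie 14005 bases apart on chromosome 4, and their log2 fold changes were -1.50 for HERC5 and -2.61 for HERC6, beside -1.03 for UBE2L6 and -0.90 for UBA7. All 5 genes of the ISG15 chain stood below 0, with a median of -1.50 and 0 of 5 called (-0.78 against the first control library alone and -2.23 against the second).

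The ADP-ribosylation genes encode enzymes that put ADP-ribose on proteins, and PARP9 works as a complex with the ubiquitin ligase DTX3L. PARP9 and DTX3L start head to head on chromosome 3. PARP9 had 36.6 and 25.4 TPM (5p duplex), 27.1 and 27.6 TPM (3p.1 duplex) and 72.0 and 168 TPM (control). DTX3L had 44.5 and 36.8 TPM (5p duplex), 42.5 and 43.8 TPM (3p.1 duplex) and 71.6 and 160.4 TPM (control). The partners had log2 fold changes of -1.89 (SE 0.327, adjusted p = 0.152) and -1.34 (SE 0.296, adjusted p = 0.23). PARP14, which lies near them, had 18.1 and 13.8 TPM in the 5p duplex libraries and 16.9 and 15.7 TPM in the 3p.1 duplex libraries, against 34.9 and 109.7 TPM in the control libraries. PARP12 had 9.76 and 8.90 TPM with the 5p duplex, 10.1 and 9.37 TPM with the 3p.1 duplex and 17.2 and 38.7 TPM in control. PARP10 had 8.05 and 9.81 TPM in the 5p duplex libraries and 7.94 and 8.04 TPM in the 3p.1 duplex libraries, against 15.8 and 24.4 TPM in the control libraries. The values of PARP10 in the 4 duplex libraries spanned less than 2 TPM, and its SE of 0.181 was the smallest of the role. The 5 genes ran from -1.89 to -1.13, with 0 of 5 called. Their median was -0.83 against the first control library alone and -1.92 against the second.

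The TRIM genes encode ubiquitin ligases and related adaptors: TRIM5 recognises retroviral capsids, TRIM21 binds antibodies in the cytosol, TRIM22 restricts several viruses, TRIM25 acts on the RNA sensor encoded by DDX58, and TRIM14 is an adaptor of mitochondrial antiviral signalling. TRIM22 had 58.0 and 42.5 TPM (5p duplex), 43.5 and 36.4 TPM (3p.1 duplex) and 69.8 and 133 TPM (control). TRIM5, which overlaps TRIM22 on the opposite strand of chromosome 11, had 55.6 and 44.8 TPM (5p duplex), 49.5 and 41.2 TPM (3p.1 duplex) and 61.5 and 87.2 TPM (control). The stranded libraries keep reads of such a pair apart only if the counting used strand, which is not given in the sources used here. TRIM14 had 39.4 and 38.6 TPM with the 5p duplex, 37.3 and 40.3 TPM with the 3p.1 duplex and 61.9 and 124 TPM in control. TRIM21 had 32.9 and 28.3 TPM in the 5p duplex libraries and 35.4 and 26.3 TPM in the 3p.1 duplex libraries, against 54.2 and 82.2 TPM in the control libraries. TRIM25 had 68.6 and 57.6 TPM (5p duplex), 60.0 and 57.5 TPM (3p.1 duplex) and 73.6 and 129 TPM (control). The first control library lay only just above the highest duplex library for TRIM5 and TRIM25. Log2 fold changes of this role ran from -1.15 (TRIM14) to -0.61 (TRIM5), with a median of -1.10 and 0 of 5 called (-0.64 against the first control library alone and -1.40 against the second). TRIM25 shares exon bases with C17orf67 on the same strand, so its level is uncertain.

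PML and SP100 build the nuclear bodies that silence incoming viral genomes, SP110 is their relative, and IFI16 binds viral DNA in the nucleus. PML had 40.2 and 35.0 TPM in the 5p duplex libraries and 45.0 and 33.7 TPM in the 3p.1 duplex libraries, against 55.5 and 65.2 TPM in the control libraries. SP100 had 88.0 and 75.4 TPM in the 5p duplex libraries and 96.7 and 86.4 TPM in the 3p.1 duplex libraries, against 109.8 and 159 TPM in the control libraries. SP110 had 36.5 and 28.0 TPM in the 5p duplex libraries and 32.1 and 33.1 TPM in the 3p.1 duplex libraries, against 57.4 and 121 TPM in the control libraries. The gap between the first control library and the duplexes was narrow for SP100 and PML and wider for SP110. IFI16 was among the most abundant of the 38, with 212 and 177 TPM with the 5p duplex, 199 and 192 TPM with the 3p.1 duplex and 287 and 492 TPM in control. PML and SP100 had shallow log2 fold changes of -0.64 and -0.61, while SP110 and IFI16 had -1.34 and -0.95. The role's median of -0.80 was the nearest to 0 of the 6 roles, with 0 of 4 called, as were those against the first control library alone (-0.54) and the second (-1.10).

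The remaining genes had log2 fold changes from -3.78 to -0.42. IFI44L and IFI44 are neighbouring paralogues on chromosome 1 of little known biochemical action. IFI44L had 0.60 and 0.23 TPM (5p duplex), 0.25 and 0.53 TPM (3p.1 duplex) and 6.99 and 45.0 TPM (control). IFI44 had 38.7 and 29.1 TPM (5p duplex), 37.0 and 37.5 TPM (3p.1 duplex) and 92.5 and 232 TPM (control). In the duplex libraries the levels of the pair lay far apart: IFI44 stood above 29 TPM in every duplex library and IFI44L below 1 TPM. XAF1, a partner of the apoptosis inhibitor XIAP, had 0.43 and 0.21 TPM with the 5p duplex, 0.28 and 0.24 TPM with the 3p.1 duplex and 2.69 and 21.5 TPM in control. RTP4, which helps receptors reach the cell surface, had 0.69 and 0.16 TPM in the 5p duplex libraries and 0.51 and 0.38 TPM in the 3p.1 duplex libraries, against 3.97 and 15.4 TPM in the control libraries. EPSTI1, first described in breast epithelium beside stroma, had 0.75 and 0.56 TPM in the 5p duplex libraries and 0.90 and 1.63 TPM in the 3p.1 duplex libraries, against 8.39 and 33.0 TPM in the control libraries. XAF1, RTP4 and IFI44L stood under 1 TPM in all 4 duplex libraries. These 3 and EPSTI1 reached the expression minimum only through the controls, while the other 34 reached it in the duplex libraries alone. The log2 fold changes were -3.78 (SE 0.634, adjusted p = 0.146) for IFI44L, -3.22 (SE 0.479, adjusted p = 0.125) for EPSTI1, -2.82 (SE 0.647, adjusted p = 0.247) for XAF1 and -2.67 (SE 0.456, adjusted p = 0.147) for RTP4. At a pseudocount of 0.1 TPM these low genes stood at -5.23 (IFI44L), -4.08 (EPSTI1), -4.35 (XAF1) and -4.00 (RTP4), with 0 of the 4 called. The second control library held 7.99 times the XAF1 level and 6.44 times the IFI44L level of the first, the highest ratios of the 38.

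PLSCR1, a phospholipid scramblase with antiviral activity, had 31.6 and 28.4 TPM (5p duplex), 31.6 and 32.5 TPM (3p.1 duplex) and 73.0 and 198 TPM (control). IFI35, a leucine zipper protein, had 40.9 and 36.0 TPM in the 5p duplex libraries and 46.1 and 37.1 TPM in the 3p.1 duplex libraries, against 90.8 and 157 TPM in the control libraries. LAP3, a leucine aminopeptidase, had 53.7 and 44.4 TPM with the 5p duplex, 51.6 and 49.6 TPM with the 3p.1 duplex and 74.8 and 130.5 TPM in control. These 3 had log2 fold changes of -1.92, -1.56 and -0.98, with all duplex libraries below both controls. LGALS3BP, a secreted glycoprotein that binds galectins, was the most abundant of the 38 with the duplexes, at 313 and 386 TPM in the 5p duplex libraries and 358 and 330.4 TPM in the 3p.1 duplex libraries, against 427 and 503 TPM in the control libraries. Its log2 fold change of -0.42 (SE 0.117, adjusted p = 0.37) was the nearest to 0. Over the 9 genes of this role the median was -2.02, with 9 of 9 below 0 and 0 of 9 called. It was -1.36 against the first control library alone and -2.68 against the second. Count and medians include IFI44L, EPSTI1, XAF1 and RTP4, whose direction was built into their being tested. Of the others, IFI44 stood at -2.02 and the rest at the values above.

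The second question was whether the duplexes differed from each other. No such difference passed the test: the 5p duplex minus 3p.1 duplex difference had a median of -0.02 (-0.44 to 0.31), with 21 genes below 0, beside 0.005 over all tested genes. Limma called 0 of the 38, against 0.351% of tested genes lower and 0.0821% higher, and 0 of the 38 were lower or higher at an unadjusted p under 0.05, against 4.96% of tested genes lower and 4.39% higher. The largest differences were those of EPSTI1 (-0.44, 95% interval -1.77 to 0.89), CMPK2 (-0.35, -1.68 to 0.98) and TRIM22 (0.31, -0.42 to 1.04). The interval was narrowest for LGALS3BP (-0.31 to 0.35) and widest for RSAD2 (-1.96 to 1.74), with a spread estimated over all 6 libraries, controls included. The interval still held a difference of 1 log2 unit for most of the 38 genes, ISG15 (0.12, -1.03 to 1.27) among them. The spread behind the intervals took in the gap between the controls, a median of 1.25 log2 units for the 38 genes. Between duplex replicates the median was -0.25 (5p duplex) and -0.06 (3p.1 duplex). The widths are thus not the spread of the duplex libraries alone. The libraries of the duplexes did not overlap in 5 of the 38, 2 with the 5p duplex higher (DDX60L and PARP10) and 3 with it lower (HELZ2, EPSTI1 and PLSCR1), against 40.4% of tested genes.

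**Figure D3:**
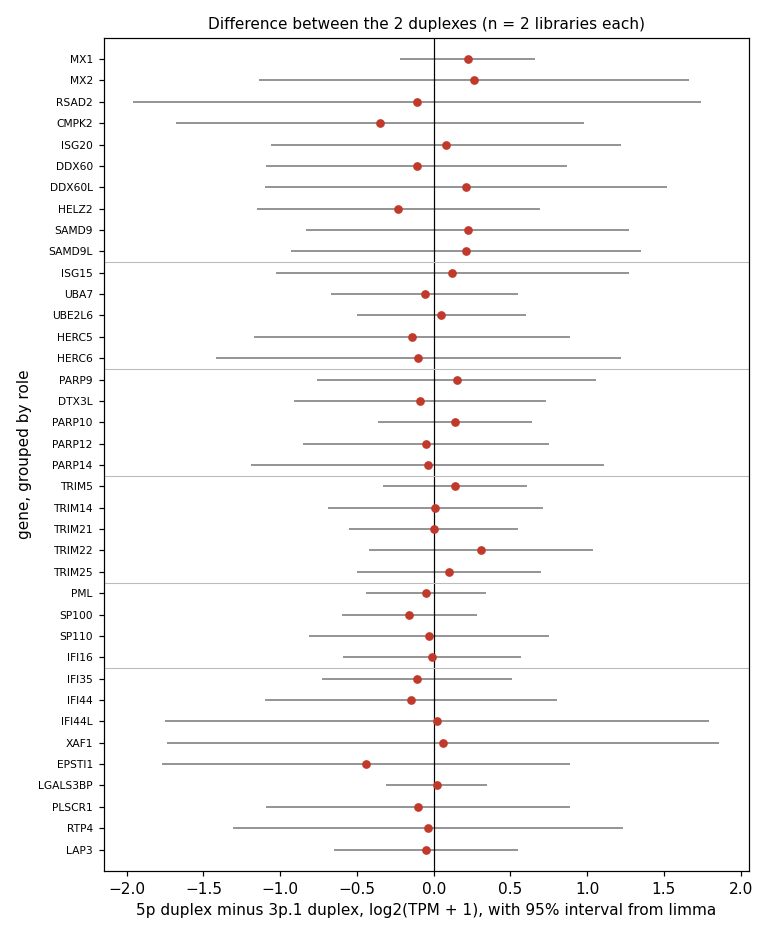
Difference in log2(TPM + 1) between the 5p duplex and the 3p.1 duplex for each gene. Points are the limma estimate (n = 2 libraries each) and bars its 95% interval. The bar widths rest on the spread within all 3 groups, the control libraries included. Every bar crosses 0, and the points lie between -0.44 (EPSTI1) and 0.31 (TRIM22).

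A promoter feature of interferon-stimulated genes was looked for next. The core of an interferon-stimulated response element, GAAA followed by any 2 bases and a second GAAA, was sought on both strands, overlaps allowed, from 250 bases before to 50 bases after each start site that RefSeq gives on GRCh38.p14. It was present for 22 of the 33 members with a promoter in the table (66.7%), against 400 of 9882 tested genes (4.05%) and 1195 of all 27305 genes in it (4.38%). MX2, UBA7, PARP10, TRIM22 and PML had no entry. The median log2 fold change with both duplexes was -1.76 for the 22 members with a core and -1.56 for those without. Against the first control library alone these medians were -0.95 with a core and -0.89 without, and against the second -2.55 and -1.95. The members were listed as interferon-stimulated genes, so a higher share among them goes with the list and is no result of these libraries. The members are also counted among the tested genes. A match is a run of letters in this window and shows no binding.

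The ISG15 promoter is shown whole, since ISG15 alone was called whichever control library was left out. Capitals mark its overlapping pair of cores, which begin 113 and 107 bases before the start site on the gene's strand (plus).
ISG15, chr1:1013247-1013546: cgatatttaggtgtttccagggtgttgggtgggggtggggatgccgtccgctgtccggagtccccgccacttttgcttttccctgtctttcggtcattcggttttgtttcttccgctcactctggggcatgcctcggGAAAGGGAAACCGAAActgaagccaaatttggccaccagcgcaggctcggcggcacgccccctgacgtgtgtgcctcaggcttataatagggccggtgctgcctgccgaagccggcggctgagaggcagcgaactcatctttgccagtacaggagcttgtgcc

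Cores of other members are shown with 10 bases on each side, read on the strand that spells the core, with the core in capitals and its coordinates, for genes with steep values (RSAD2, IFI44L, EPSTI1, RTP4), for paralogues and neighbours, and for genes with shallow values (LGALS3BP, TRIM5, MX1).
RSAD2, chr2:6877632-6877641: ttccacatgtGAAACTGAAAgttgaaacag
IFI44L, chr1:78620284-78620293: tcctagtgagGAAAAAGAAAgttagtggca
IFI44L, chr1:78620375-78620384: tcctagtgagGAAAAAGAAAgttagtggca
IFI44, chr1:78649771-78649780: tcagagaaagGAAACTGAAActcagtgtgc
EPSTI1, chr13:42992282-42992291: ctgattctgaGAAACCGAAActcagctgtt
RTP4, chr3:187368367-187368376: accgaacaccGAAACTGAAActgtttgtct
DDX60, chr4:168318796-168318805: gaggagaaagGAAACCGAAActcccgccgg
DDX60L, chr4:168480533-168480542: gtggagaaaaGAAACCGAAActaactccct
DTX3L, chr3:122564332-122564341: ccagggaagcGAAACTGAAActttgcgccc
LGALS3BP, chr17:78979972-78979981: gtggtttctgGAAATCGAAAgtagactctt
TRIM5, chr11:5685092-5685101: ctcagggcagGAAAGTGAAAgataaactat
MX1, chr21:41420569-41420578: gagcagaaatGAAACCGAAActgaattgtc
The 30 letters around both IFI44L cores are identical, at 164 and 73 bases before the start site. The DTX3L core also lies in the PARP9 window, 41 bases before that gene's start on the opposite strand and 6 bases before the DTX3L start, so this head-to-head pair holds 1 core in common. The core GAAACCGAAA of DDX60, DDX60L and EPSTI1 is also that of MX1, whose copy begins at base 12 after a start site, so this core was present beside both steep and shallow values.

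**Figure D4:**
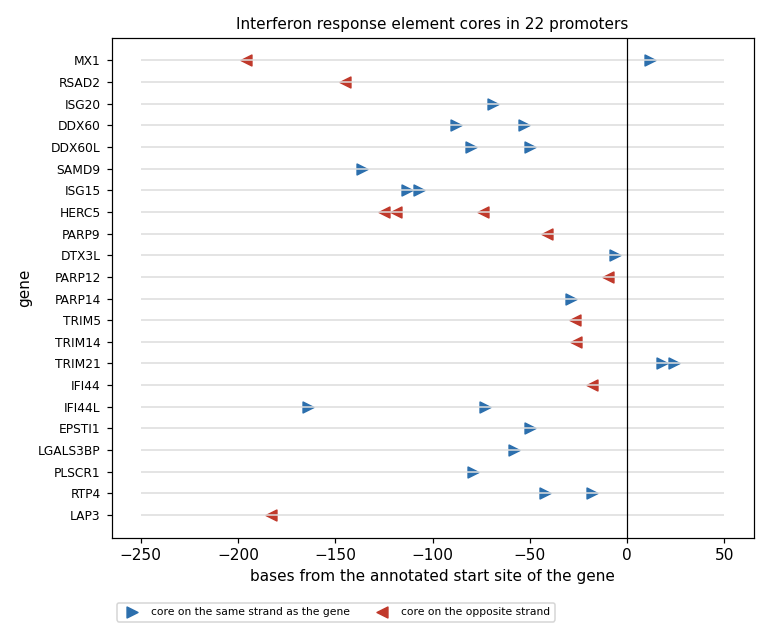
First base of each response element core relative to the annotated start site (0) in the 22 promoters that hold one, from 250 bases before to 50 bases after; right-pointing blue symbols are cores on the gene's own strand and left-pointing red ones on the opposite strand. Most lie between the start site and 150 bases before it, and those of TRIM21 and 1 of MX1 lie after it.

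Matches to the seeds of the annotated strands were counted next, since a microRNA acts mainly through such sites in 3′UTRs. A match of 7 or 8 bases to the miR-324-5p seed (GGGATGC, or GGATGCA, or both joined as GGGATGCA) was found in the longest annotated 3′UTR (GENCODE 29, GRCh38) of 5 of the 38 members (13.2%), against 1719 of 11747 tested genes with a 3′UTR (14.6%). None of the 5 was the full 8-base match. The sites are shown in capitals with 10 bases on each side, because they are the seed matches of the 5p strand that this search found among the members; other 3′UTR isoforms, coding sequence and shorter matches were not searched.
EPSTI1, 7mer-m8, chr13:42886901-42886907, minus strand: gtaggaaaaaGGGATGCtttcttactt
TRIM25, 7mer-m8, chr17:56890812-56890818, minus strand: ccaggcgaggGGGATGCtgccctggat
PML, 7mer-m8, chr15:74046378-74046384, plus strand: ccctgctcctGGGATGCttcccaagca
CMPK2, 7mer-A1, chr2:6849061-6849067, minus strand: ccattgaactGGATGCAtttcatttag
PARP9, 7mer-A1, chr3:122535360-122535366, minus strand: ttggtttctaGGATGCAaaggctctag
For the annotated 3p strand the corresponding match (GCAGTGG, or CAGTGGA, or both joined as GCAGTGGA) was in 8 of the 38 (21.1%), against 3774 of 11747 (32.1%), and whether the 3p.1 strand has that seed is not given by the labels. With both duplexes, the median over members with a 5p match was -1.89 (log2 fold change), beside -1.56 over those without; for the 3p match both medians were -1.59. Against the first control library alone the medians were -1.29 with a 5p match and -0.83 without, and against the second -2.50 and -2.23; for the 3p match they were -0.98 and -0.86, and -2.20 and -2.29. Of the 5 with a 5p match, EPSTI1, CMPK2, PARP9, TRIM25 and PML stood at -3.43, -3.08, -1.82, -0.63 and -0.67 with the 5p duplex and at -3.00, -2.73, -1.97, -0.72 and -0.61 with the 3p.1 duplex.

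The rest of the interferon pathway is given from fixed lists. Of the interferon ligands, IFNB1 was listed at 0.31 TPM in the first 3p.1 duplex library and at 0.13 and 0.82 TPM in control, and at 0 in the other duplex libraries; IFNL1 was listed at 0.28 TPM in the second control library alone. The other 7 ligand symbols were listed nowhere, and none could be tested. Receptor and kinase genes stood near 0 with both duplexes: IFNAR1, IFNAR2, JAK1 and TYK2 had log2 fold changes of -0.02, -0.09, 0.00 and -0.08, while IRF9 had -1.55 (SE 0.158, adjusted p = 0.0657). IRF9 had 21.9 and 17.9 TPM with the 5p duplex, 24.3 and 18.4 TPM with the 3p.1 duplex and 55.2 and 69.2 TPM in control. Of the 15 genes of receptors, JAK-STAT and ISGF3, 1 was called lower with the 5p duplex (IRF9 at -1.60, adjusted p = 0.0326 by limma), 0 with the 3p.1 duplex and 0 with both, and the list's median with both was -0.10. Without the second control library IRF9 stood at -1.44 and was not called (adjusted p = 0.108, limma), and without the first it was (-1.76, adjusted p = 0.0345).

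The OAS and IFIT list (9 of 10 tested) had a median of -2.95 with both duplexes and 0 called, with OAS1 at -4.06 and OAS2 at -4.07, enzymes that activate an RNA-degrading nuclease. The IFITM, IFI6 and IFI27 list (8 tested) had a median of -2.21, with 0 called with both duplexes or with the 3p.1 duplex and 3 called lower with the 5p duplex: IFITM1 at -4.41 (SE 0.525, adjusted p = 0.0368), IFI6 at -3.37 (SE 0.439, adjusted p = 0.0489) and IFI27 at -3.34 (SE 0.438, adjusted p = 0.0489) by limma. IFITM1 had 8.67 and 5.92 TPM with the 5p duplex, 7.95 and 8.69 TPM with the 3p.1 duplex and 92.8 and 321 TPM in control. IFI6 had 14.1 and 10.2 TPM in the 5p duplex libraries and 9.30 and 11.9 TPM in the 3p.1 duplex libraries, against 80.6 and 220.4 TPM in the control libraries. IFI27 had 15.3 and 16.3 TPM (5p duplex), 14.1 and 14.6 TPM (3p.1 duplex) and 98.9 and 288 TPM (control). All duplex libraries lay below both controls, and the controls stood well apart from each other. These 3 stood at -5.30, -4.09 and -4.11 without the first control library and at -3.52, -2.65 and -2.57 without the second, called in both fits. They and IRF9 were not called in limma fits without any 1 of the duplex libraries, with no filter on low values, with no variance trend or with only the groups compared, where the lowest adjusted p was 0.0507, and IFI6 and IFI27 were not called after quantile normalization (adjusted p = 0.0564 each, limma). Sensors and their adaptors (12 tested of 18 symbols, some of which are older and newer names of 1 gene) had a median of -0.62 and 0 called, with DHX58 at -1.66 and IRF7 at -1.95, and MAVS and TBK1 at -0.09 and -0.06. Feedback inhibitors (6 tested of 7) had a median of -0.19 and 0 called, with USP18, the protease that removes ISG15, at -2.96 and SOCS1 at -0.87. MHC class I and antigen processing genes (17 tested of 18) had a median of -0.39 and 0 called, with PSMB10 at -0.55 and PSMB9 at -0.78, both immunoproteasome subunits. NF-kB and inflammatory genes (9 tested of 19) had a median of -0.01 and 0 called, with CCL2, a chemokine, at -0.40 and TNFAIP3, a feedback inhibitor of NF-kB, at 0.13. Against the first and the second control library alone the medians were -1.87 and -4.03 (OAS and IFIT), -1.59 and -2.83 (IFITM), -0.51 and -0.90 (sensors), -0.32 and -0.51 (MHC class I), -0.13 and -0.17 (receptors and JAK-STAT), -0.27 and -0.08 (feedback) and -0.10 and 0.14 (NF-kB, where the direction turned). The lists with the lowest medians were thus those of other effector genes, and the NF-kB list stood near the median of all genes. In the reported fit, 0 genes of the lists other than those of IRF9 and IFITM1 were called in any comparison with control.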

How the data were processed

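Polyadenylated RNA of 6 A172 libraries (3 groups of 2) was read as stranded pairs of 100 bp, per the labels' protocols. The authors deposited TPM per gene symbol, and RSEM and GRCh38 stand without versions per the submitters' processing notes; the aligner and annotation were not given in the sources used here. TPM keeps no read number, so depth is unknown and no count test or counting interval was possible. An unlisted symbol was set to 0, and entries of a repeated symbol (21 to 23 per library, 0 of them members) were added up. Levels were analysed as log2(TPM + 1), which understates changes of low genes. Symbols averaging 1 TPM or more (13400 of 20979, all 38 members among them) entered 1 linear model of group means with limma 3.58.1 in R 4.3.3 (variance trend, 3 residual and 3.38 prior degrees of freedom), checked on simulated data; adjusted p-values are two-sided Benjamini-Hochberg over all tested genes, called under 0.05. An exact permutation test of 2 against 2 cannot go below p = 0.333. The members, lists and tests were chosen with earlier results of these data known. All members are named, with up to 2 genes of each other list by lowest p with both duplexes; IFI27, IFNAR1, IFNAR2, JAK1, TYK2, MAVS and TBK1 were named after their values were seen, and some genes of these lists are not reported here. Promoters and microRNAs came from RefSeq, 3′UTRs and positions from GENCODE 29. Alternatives were a pseudocount of 0.1, no filter, quantile normalization, no variance trend, only the groups compared, a term for replicate number and each library left out.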

Additional observations from a re-analysis of the deposited data

How the results depend on the processing

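In the 418 (both duplexes), 456 (5p duplex) and 456 (3p.1 duplex) recomputed values of single members against control, 0 turned sign. Over the fits that left out 1 library, members called lower ran from 0 to 31 (both duplexes), 0 to 30 (5p duplex) and 0 to 30 (3p.1 duplex), and their median log2 fold change from -2.29 to -0.86, -2.27 to -0.82 and -2.26 to -0.95. The highest counts and lowest medians are those without control replicate 1, the medians nearest to 0 those without control replicate 2, and the count was 0 without any of the duplex libraries. With a replicate block the count was 8 (both duplexes), 12 (5p duplex) and 0 (3p.1 duplex), against 0.746%, 2.43% and 0.187% of tested genes. The labels tie the replicate number to nothing, and deviations of same-numbered libraries correlated over tested genes at 0.383 (5p and 3p.1 duplex), 0.265 (5p duplex and control) and 0.375 (3p.1 duplex and control), so the block is a hint from the data and not the design. With a pseudocount of 0.1 the low genes IFI44L, XAF1, RTP4 and EPSTI1 stood at -5.23, -4.35, -4.00 and -4.08. A pseudocount of 0.1, no filter, quantile normalization, no variance trend and a fit of only the groups compared left 0 members called in each comparison, and their medians moved by less than the spread between replicates. For both duplexes, the fit of only the groups compared is the reported fit. Of 456 recomputed single differences between the duplexes 40 turned sign, 3 of them with all libraries, and 0 were called. Low duplex levels, under 1 TPM for XAF1, RTP4 and IFI44L, limit how well those fold changes are known.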

Other observations

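In 48 of the 13400 tested genes the mean of the 4 duplex libraries lay at least 1 log2 unit below each control library alone: 17 were members (35.4% of the 48 and 44.7% of the 38), 17 were genes of the other interferon lists, and 14 were neither. Those 14, named after their values were seen, were 5 small nucleolar RNA genes and NBL1, SULT1A3, PLPP1, ASF1B, TNFSF10 (the death ligand TRAIL), LGALS9 (a galectin), TRANK1, C19orf66 (an inhibitor of viral replication) and SLC15A3 (a lysosomal transporter). TNFSF10 stood at 0.81 and 0.40 TPM with the 5p duplex, 1.20 and 1.15 TPM with the 3p.1 duplex and 4.31 and 13.6 TPM in control, and C19orf66 at 15.0 and 15.1, 17.3 and 16.5, and 33.6 and 69.1 TPM. PLPP1 had 7.78 and 7.34 TPM (5p duplex), 30.5 and 29.2 TPM (3p.1 duplex) and 36.7 and 32.7 TPM (control). ASF1B had 16.65 and 23.22 TPM (5p duplex), 79.34 and 100.39 TPM (3p.1 duplex) and 98.35 and 121.32 TPM (control). For both genes the low values were mainly those of the 5p duplex. A low mean also need not hold in each library: SNORA40 had 90.11 TPM in the first 5p duplex library and 16.42 TPM in the first control library.

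Of 160 tested genes with the second control library at least 1 log2 unit above the first, 23 were members (14.4% of the 160 and 60.5% of the 38), 19 were genes of the other interferon lists and 118 were neither. The TPM ratio of the second to the first control library ran among members up to 7.99 (XAF1), 6.44 (IFI44L) and 5.34 (RSAD2) and down to 1.25 (MX1), 1.18 (LGALS3BP) and 1.17 (PML). What set the control libraries apart was not tested.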
